A study of Rattus norvegicus with 9 samples.

Results

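The Reelin pathway was described in 9 RNA-seq libraries of cultured rat fibroblasts (Fb). It was followed through 4 of the 32883 genes in the deposited tables, chosen by symbol: *Reln*, which encodes the secreted ligand Reelin, *Vldlr* and *Lrp8*, which encode its receptors, and *Dab1*, which encodes the adaptor inside the cell. *Reln* was picked because it was present in parenchymal nerve cells and absent in skin cells, so its levels are given as a description without a test. Fb-Epn and Fb-Par were grown from the epineurium, the outer sheath, and from the parenchyma of the sciatic nerves of 2 male wild-type Lewis rats, and Fb-Skn from the abdominal skin of 1 other male wild-type Lewis rat. All rats were 10 weeks of age, and the cells had gone through 1 passage. Each type had 3 libraries. Since fewer rats than libraries were used for each type, some libraries share an animal, and the sources do not state whether they were separate cultures. Each p-value therefore measures only the spread between these libraries. Tissue, body site and, for skin, the animal changed together and cannot be told apart.

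Reelin is a large extracellular glycoprotein, best known from the developing brain, where Cajal-Retzius cells secrete it and migrating neurons read it. It binds the VLDL receptor and ApoER2, the product of *Lrp8*, after which Src family kinases phosphorylate Dab1 and the signal passes to Crk proteins, PI3 kinase and the cytoskeleton. Outside the brain, Reelin is made among others by Schwann cells and lymphatic endothelial cells. Both receptors belong to the LDL receptor family and also take up lipoproteins carrying apolipoprotein E.

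On rn6 all 4 genes lie on the plus strand. *Reln* (ENSRNOG00000021441) spans 426.1 kb of chromosome 4, from 9347528 to 9773670. *Vldlr* (ENSRNOG00000027491) spans 31.5 kb of chromosome 1, from 245237736 to 245269205. *Lrp8* (ENSRNOG00000013064) spans 72.2 kb of chromosome 5, from 127404450 to 127476641, and *Dab1* (ENSRNOG00000007410) spans 375.0 kb of the same chromosome, from 123905166 to 124280115. *Dab1* alone overlapped another listed gene, a pseudogene on the same strand with 0 counts in every library. *Reln* and *Vldlr* were the members with 1 RefSeq promoter each (GRCr8), and the 250 bases before their start sites are printed because the ligand was at 0 in a fibroblast type in which the receptor was at its highest. CG dinucleotides, the usual sites of DNA methylation, are in capitals. The *Reln* window is chr4:13628318-13628567 and the *Vldlr* window is chr1:234240436-234240685, both on the plus strand.
Reln: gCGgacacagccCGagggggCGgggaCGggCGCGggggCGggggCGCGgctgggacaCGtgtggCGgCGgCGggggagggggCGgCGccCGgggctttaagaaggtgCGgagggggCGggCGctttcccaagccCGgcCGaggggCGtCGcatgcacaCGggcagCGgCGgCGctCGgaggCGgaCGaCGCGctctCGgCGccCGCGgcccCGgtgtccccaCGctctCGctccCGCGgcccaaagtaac
Vldlr: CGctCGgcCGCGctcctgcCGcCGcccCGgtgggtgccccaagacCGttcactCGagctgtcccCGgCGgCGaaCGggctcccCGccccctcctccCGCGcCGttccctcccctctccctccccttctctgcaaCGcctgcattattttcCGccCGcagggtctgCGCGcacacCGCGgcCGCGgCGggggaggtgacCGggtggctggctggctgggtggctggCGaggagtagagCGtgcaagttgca
The *Reln* window held 41 CG dinucleotides with a GC content of 80.0%, more CG than 99.02% of 33469 RefSeq promoters. The *Vldlr* window held 30, with a GC content of 73.6%, more than 94.6% of promoters. For *Dab1*, RefSeq listed a promoter with 11 and another with 35. Over all promoters the median was 5 CG, and 92.2% held at least 1 (CG reads the same on both strands). No methylation was measured, and the letters are a description only.

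A library held between 10084584 and 12310506 counts in total. After the expression filter of edgeR, 13273 genes were tested, among them *Reln*, *Vldlr* and *Lrp8*, whereas *Dab1* fell below the filter. Over these genes, replicate libraries varied with a common coefficient of variation of 8.25%. Levels are given as TPM, a share of all transcripts that is corrected for gene length, and differences as log2 fold changes of edgeR on the counts. An adjusted p below 0.01 is called past the test. The scales differ slightly: relative to edgeR's scaling, the median log2 difference of all tested genes moved from -0.00 to 0.13 in Fb-Epn against Fb-Skn and from -0.01 to 0.12 in Fb-Par against Fb-Skn when measured on log2(TPM + 1), so ratios of TPM against Fb-Skn are higher than edgeR's folds. Since cultures were sequenced in bulk, fewer cells of a type and less RNA per cell cannot be told apart.

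The ligand gene *Reln* was highest in Fb-Par, lower in Fb-Epn and listed at 0 in Fb-Skn. The Fb-Par libraries held 697, 600 and 560 counts, or 11.5, 11.4 and 10.1 TPM. The Fb-Epn libraries held 86, 87 and 73 counts, or 1.54, 1.38 and 1.29 TPM, and each Fb-Skn library held 0 counts. The 3 types did not overlap, which for Fb-Par and Fb-Skn follows from the choice of *Reln*. Libraries were also without overlap, in either direction, for 61.4% of all tested genes in Fb-Epn against Fb-Skn. The shares were 57.3% in Fb-Epn against Fb-Par and 61.7% in Fb-Par against Fb-Skn. The mean TPM of Fb-Par was 11.0 ± 0.761 (SD, n = 3), which is 7.81 times the mean of 1.41 ± 0.126 (SD, n = 3) found in Fb-Epn, and edgeR estimated the log2 difference of Fb-Epn from Fb-Par at -2.95 (standard error 0.105). Against a floor of 3 counts per library in Fb-Skn, *Reln* was at least 183-fold higher in Fb-Par and at least 23.5-fold higher in Fb-Epn. Even in Fb-Par it was a modest transcript, with 35.7% of tested genes at a lower mean TPM, and in Fb-Epn only 7.14% were lower.

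**Figure D1:**
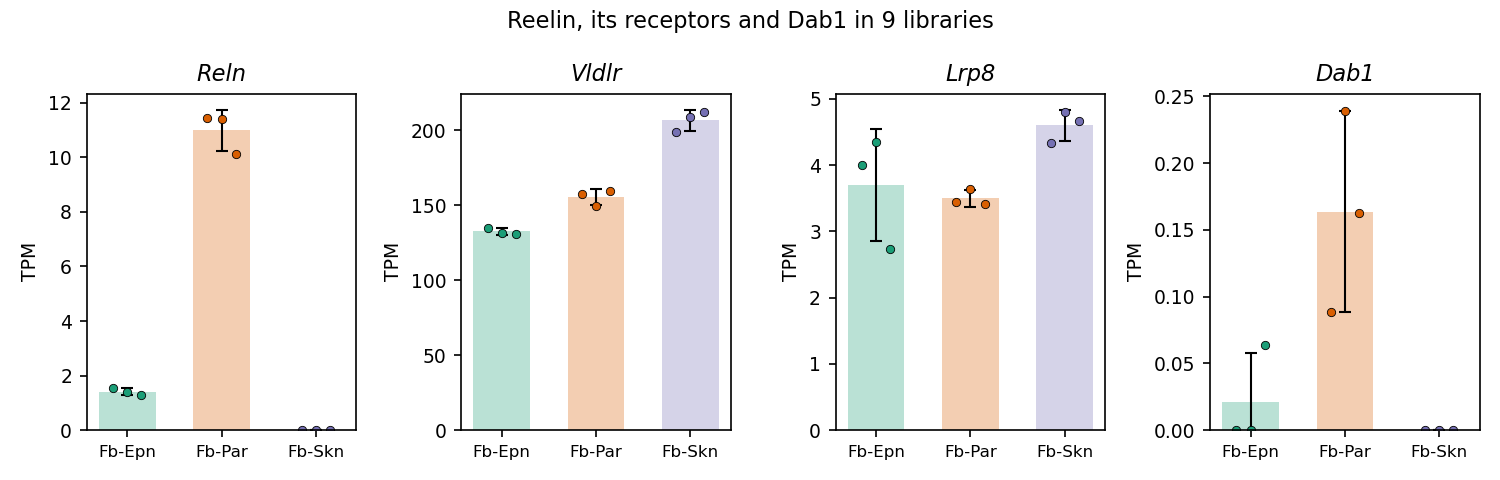
Level of each member in TPM (vertical axis, linear from 0, a separate scale per gene) in the 3 types. Points are libraries, bars are means and error bars are SD (n = 3). *Reln* reached 10.1 to 11.5 TPM in Fb-Par and 0 in Fb-Skn, while *Vldlr* was above 130 TPM in every library and highest in Fb-Skn.

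Of the receptor genes, *Vldlr* was by far the more abundant and stood in another order than the ligand, lowest in Fb-Epn, intermediate in Fb-Par and highest in Fb-Skn. The Fb-Epn libraries had 135.0, 131.7 and 130.8 TPM. The Fb-Par libraries had 157.6, 149.4 and 159.5 TPM, and the Fb-Skn libraries had 198.5, 208.8 and 212.4 TPM. No library of a type overlapped another type, as was also the case for 61.4% of all tested genes in Fb-Epn against Fb-Skn, 57.3% in Fb-Epn against Fb-Par and 61.7% in Fb-Par against Fb-Skn. The means were 132.5 ± 2.20, 155.5 ± 5.37 and 206.6 ± 7.17 TPM (SD, n = 3 each), and between 90.8% and 94.3% of tested genes were at a lower level in each type.

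*Vldlr* was past the test in all 3 comparisons of edgeR. It was 1.72-fold higher in Fb-Skn than in Fb-Epn (log2 fold change of Fb-Epn -0.78, standard error 0.0351, adjusted p = 1.1e-10). It was 1.47-fold higher in Fb-Skn than in Fb-Par (log2 fold change of Fb-Par -0.56, standard error 0.0348, adjusted p = 4.1e-09). Between the nerve types the difference was small, and the log2 fold change of Fb-Epn over Fb-Par was -0.22 (standard error 0.0352, adjusted p = 0.00011). Of all tested genes, 43.9% were past the same threshold in Fb-Epn against Fb-Skn, 45.6% in Fb-Par against Fb-Skn and 38.8% in Fb-Epn against Fb-Par. An exact two-sided permutation test of the TPM of *Vldlr* gave 0.1 in each comparison, the smallest p that 3 libraries against 3 allow. None of these differences reached the log2 fold change of 2 that defines DE genes, a size reached with the adjusted p by 8.44%, 8.54% and 6.48% of tested genes.

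*Lrp8* was a low transcript in every type. The Fb-Epn libraries had 4.01, 4.35 and 2.74 TPM, from 149, 183 and 103 counts. The Fb-Par libraries had 3.45, 3.64 and 3.41 TPM, and the Fb-Skn libraries had 4.34, 4.80 and 4.67 TPM. Fb-Skn was above Fb-Par without overlap, and 61.7% of all tested genes were without overlap, in either direction, between these types. Fb-Epn spread across both, with a coefficient of variation of 23.0% against 3.60% in Fb-Par and 5.17% in Fb-Skn. *Lrp8* was 1.46-fold higher in Fb-Skn than in Fb-Par (log2 fold change of Fb-Par -0.54, standard error 0.146, edgeR, adjusted p = 0.0055). This call was lost, with an adjusted p of up to 0.022 in edgeR, in each of the 6 fits that left out a Fb-Par or a Fb-Skn library, and with limma on TPM. Fb-Epn against Fb-Skn missed the threshold (log2 fold change -0.45, standard error 0.145, edgeR, adjusted p = 0.017), and passed it without Fb-Epn replicate 2 (log2 fold change -0.59, adjusted p = 0.0053). Between Fb-Epn and Fb-Par the log2 fold change was 0.093 (95% interval from -0.27 to 0.45, edgeR, adjusted p = 0.63), and it was 0.27 without Fb-Epn replicate 3 and -0.045 without Fb-Epn replicate 2.

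**Figure D2:**
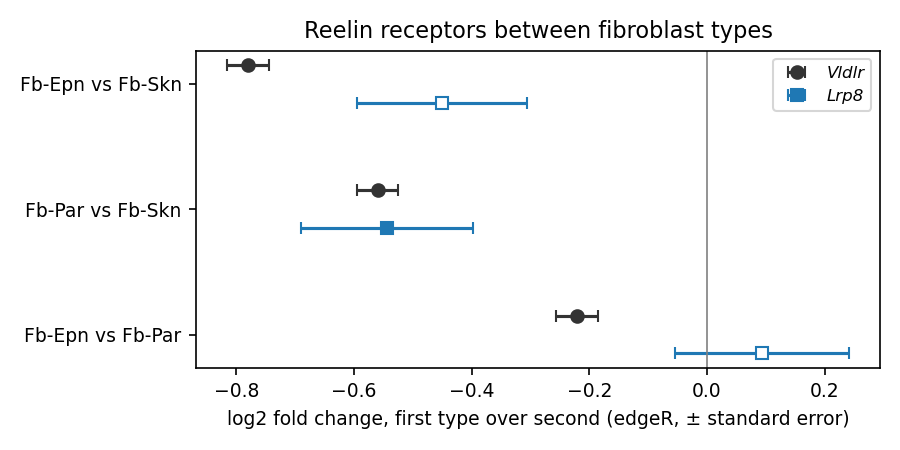
Log2 fold change (horizontal axis, first type over second, edgeR) of *Vldlr* (circles) and *Lrp8* (squares) in the 3 comparisons of types (vertical axis), with standard errors. Filled symbols are past an adjusted p of 0.01 and open symbols are not. *Vldlr* was past the test in each comparison and *Lrp8* in Fb-Par against Fb-Skn alone, a call that was lost when a library of these types was left out.

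*Dab1*, the adaptor that carries the signal from both receptors, was close to the limit of detection. The Fb-Par libraries held 3, 7 and 5 counts, the Fb-Epn libraries 0, 0 and 2, and the Fb-Skn libraries 0 each. Fb-Par lay above both other types, which overlapped each other. Among the genes that passed the filter, libraries were without overlap, in either direction, for 57.3% in Fb-Epn against Fb-Par. The share was 61.7% in Fb-Par against Fb-Skn. The mean TPM was 0.164 ± 0.0753 (SD, n = 3) in Fb-Par. Pooled over libraries this was 15 of 33077647 counts in Fb-Par, or 0.453 CPM, counts scaled by the total (95% exact counting interval 0.254 to 0.748), and 0 of 31353390 in Fb-Skn, which allows up to 0.0957 CPM by a floor of 3 counts over the pooled libraries (the 95% exact interval reaches 0.118 CPM). Intervals and floors cover counting error only. In Fb-Epn there were 2 counts, and Fb-Par over Fb-Epn was a ratio of 7.75 with a counting interval from 1.80 to 69.9. With no expression filter, edgeR gave an adjusted p of 0.0071 for Fb-Par against Fb-Skn, 0.061 for Fb-Epn against Fb-Par and 0.34 for Fb-Epn against Fb-Skn. In that fit, 6544 of 19501 genes had an adjusted p below 0.01 in Fb-Par against Fb-Skn. The numbers were 5616 in Fb-Epn against Fb-Par and 6376 in Fb-Epn against Fb-Skn. *Dab1* entered this fit mostly through its 15 counts in Fb-Par.

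The balance of ligand and receptors therefore differed among types in TPM. *Vldlr* exceeded *Reln* by 13.1 to 15.8 times in the Fb-Par libraries and by 87.5 to 101 times in the Fb-Epn libraries. *Reln* was 2.97 to 3.32 times *Lrp8* in Fb-Par and 0.317 to 0.473 times *Lrp8* in Fb-Epn. Between the receptors, *Vldlr* was 41.0 to 46.8 times *Lrp8* in Fb-Par, 43.5 to 45.8 times in Fb-Skn and 30.3 to 47.8 times in Fb-Epn. These ratios are descriptions, since *Reln* was chosen for its pattern.

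In RNA, the cultures carried fibroblast markers, and the nerve-derived cultures also carried markers of Schwann cells, the glia that wrap peripheral axons. The 7 fibroblast markers analysed summed to 31100 to 31300 TPM in Fb-Epn, 26200 to 27200 TPM in Fb-Par and 29800 to 31000 TPM in Fb-Skn, with none at 0 and *Col1a1* the highest. The 11 Schwann cell markers summed to 616 to 636, 836 to 854 and 283 to 297 TPM, with *Pmp22* the highest. *Sox10*, *Erbb3* and *Cdh19* were at 0 in every Fb-Skn library, as *Reln* was. In the edgeR tests against Fb-Skn, 10 of the 11 were higher in Fb-Par and 9 in Fb-Epn, with 0 lower, beside 23.2% and 23.0% of tested genes called higher. Between the nerve types, 9 were lower in Fb-Epn and 1 was higher, against 18.6% and 20.2% of tested genes. The mean of *Reln* in Fb-Epn was 12.8% of that in Fb-Par, against 47.1% for *Sox10*, 45.6% for *Erbb3* and 46.0% for *Cdh19*. The part of Schwann cells in the *Reln* counts was not tested.

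**Figure D3:**
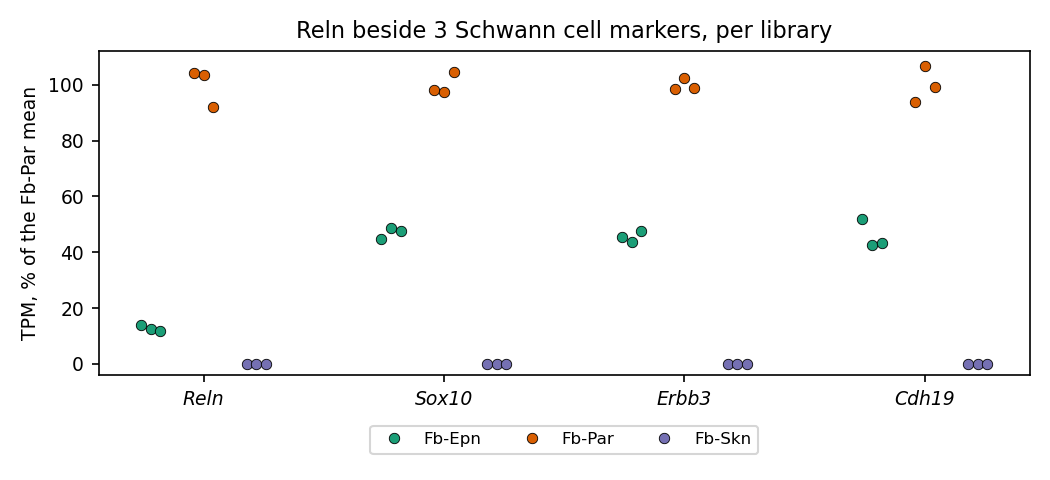
TPM of *Reln* and of the Schwann cell markers *Sox10*, *Erbb3* and *Cdh19* in each library, as a percentage of the Fb-Par mean of the gene (vertical axis, linear). Points are libraries, coloured by type. All 4 genes were at 0 in Fb-Skn, and in Fb-Epn *Reln* stood at 12.8% on average and *Sox10* at 47.1%.

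Markers of further cell types stood in other orders. The 5 endoneurial fibroblast markers summed to 103 to 106 TPM in Fb-Epn, 104 to 112 TPM in Fb-Par and 59.4 to 63.8 TPM in Fb-Skn, with none at 0 in every library of a type. Listed from Fb-Epn to Fb-Par to Fb-Skn, as in all the triplets that follow, the means were 1.18, 45.2 and 0.127 TPM for *Apod*, 1.48, 11.2 and 1.80 TPM for *Etv1* and 6.45, 32.9 and 20.7 TPM for *Osr2*, which peaked in Fb-Par with *Reln*. *Sox9* peaked in Fb-Epn, with 93.4, 16.6 and 14.2 TPM, and *Wif1* in Fb-Skn, with 1.94, 1.71 and 24.4 TPM. The 6 mural cell markers summed to 38.3 to 44.3, 246 to 264 and 149 to 154 TPM, and *Rgs5* and *Kcnj8* were at 0 in Fb-Skn. The 5 lymphatic endothelial markers summed to 96.6 to 101, 94.6 to 101 and 223 to 229 TPM, nearly all of it *Pdpn*, while the defining *Prox1* was at 0.392, 0.151 and 0.195 TPM. The 8 blood endothelial markers summed to 32.5 to 37.8, 25.2 to 26.4 and 24.3 to 34.3 TPM, with *Egfl7* the highest, *Cldn5* at 0 in Fb-Par and *Cdh5*, *Emcn* and *Cldn5* at 0 in Fb-Skn. Their part in the *Reln* counts was not tested.

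Beyond the members, 60 genes of the pathway were listed, of which 54 were tested. *Lrp1b* and *Sorl1* were not analysed here, and *Mep1a*, *Mep1b*, *Dcx* and *Cdk5r1* were below the filter. In Fb-Epn against Fb-Skn, 26 were higher and 16 lower in edgeR, against 23.0% and 20.9% of all tested genes. In Fb-Par against Fb-Skn, 26 were higher and 8 lower, against 23.2% and 22.4%. In Fb-Epn against Fb-Par, 13 were higher and 16 lower, against 20.2% and 18.6%. The share of higher calls among all called genes depends on the scaling, and rose from 52.3% to 69.3% in Fb-Epn against Fb-Skn and from 50.8% to 67.0% in Fb-Par against Fb-Skn with limma on log2(TPM + 0.1). In the list it rose from 61.9% to 70.0% and from 76.5% to 80.6%. The median log2 fold change of the listed genes was 0.23, 0.17 and -0.05 in the order of these comparisons, beside -0.00, -0.01 and -0.00 over all tested genes.

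The proteases that cut Reelin, with their inhibitors, were mostly higher in the nerve types. Of 8 tested genes, Fb-Par had 7 higher and 1 lower against Fb-Skn, Fb-Epn had 6 higher and 2 lower against Fb-Skn, and Fb-Epn had 1 higher and 3 lower against Fb-Par. The shares of all tested genes called higher and lower were 23.2% and 22.4%, 23.0% and 20.9%, and 20.2% and 18.6% in these comparisons. *Adamts5*, a metalloproteinase that cleaves Reelin as well as aggrecan, had 116.2 ± 3.87 TPM in Fb-Epn, 119.7 ± 5.02 TPM in Fb-Par and 7.09 ± 0.172 TPM in Fb-Skn (SD, n = 3). *Adamts3*, the main Reelin-cleaving enzyme of the brain, was low, with 0.645, 0.906 and 0.148 TPM, and its call in Fb-Epn against Fb-Skn was lost, with an adjusted p of up to 0.021, in some alternatives, among them the fits without Fb-Epn replicates 2 and 3 and without Fb-Skn replicates 1 and 2. *Adamts2*, a procollagen protease that also cuts Reelin, ran the other way, with 73.4, 134.9 and 180.0 TPM. *Plat*, tissue plasminogen activator, was highest in Fb-Par, with 284.4 ± 5.62 TPM against 88.3 ± 11.7 TPM in Fb-Epn and 46.7 ± 5.47 TPM in Fb-Skn. *Timp3*, an inhibitor of these metalloproteinases, was lowest in Fb-Epn, with 33.1 ± 2.02 TPM against 548.8 ± 13.1 TPM in Fb-Par (log2 fold change -4.04, edgeR, adjusted p = 8.8e-17) and 305.7 ± 17.2 TPM in Fb-Skn.

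The other ligands of the receptors were mostly higher in the nerve types. All 6 were tested. Against Fb-Skn, 5 were higher and 1 was lower in Fb-Epn, and 4 were higher in Fb-Par, while Fb-Epn against Fb-Par gave 3 in each direction. Of all tested genes, 23.0% were higher and 20.9% lower in Fb-Epn against Fb-Skn, 23.2% were higher in Fb-Par against Fb-Skn, and 20.2% were higher and 18.6% lower between the nerve types. *Apoe*, the lipoprotein ligand, had 589.1 ± 33.6 TPM in Fb-Epn, 205.5 ± 7.64 TPM in Fb-Par and 26.1 ± 1.42 TPM in Fb-Skn (SD, n = 3), with log2 fold changes against Fb-Skn of 4.35 in Fb-Epn (edgeR, adjusted p = 4.1e-16) and 2.82 in Fb-Par (edgeR, adjusted p = 4.1e-14). *Clu*, clusterin, had 98.7, 154.1 and 26.1 TPM. *Spon1*, F-spondin, had 90.2 ± 2.31 TPM in Fb-Epn against 4.12 ± 0.351 TPM in Fb-Par and 1.89 ± 0.0519 TPM in Fb-Skn, and the log2 fold change between Fb-Epn and Fb-Skn was 5.44 (edgeR, adjusted p = 1.1e-16). *Thbs1*, thrombospondin 1, was abundant in every type, with 12520, 6602 and 5960 TPM. *Selenop*, selenoprotein P, had 202.8, 243.7 and 126.6 TPM, and *Lpl*, lipoprotein lipase, had 71.2, 90.5 and 82.6 TPM. By mean TPM, *Apoe*, *Spon1* and *Thbs1* were highest in Fb-Epn, and *Clu*, *Selenop* and *Lpl* in Fb-Par.

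Genes that fold, sort and degrade the receptors were lower in Fb-Epn. All 4 were lower in Fb-Epn when set against Fb-Skn, and 3 when set against Fb-Par, whereas Fb-Par against Fb-Skn gave 1 higher and 1 lower. Over all tested genes, 20.9% and 18.6% were lower in Fb-Epn, and Fb-Par against Fb-Skn had 23.2% higher and 22.4% lower. *Mylip*, which encodes the ubiquitin ligase IDOL, had 7.11, 14.8 and 10.2 TPM, and its call in Fb-Par against Fb-Skn was lost in 9 of 20 alternatives, with an adjusted p of up to 0.043, among them the fits without replicate 1 or 3 of any type. *Lrpap1*, the chaperone RAP, had 79.7, 121.1 and 107.7 TPM.

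Among other members of the LDL receptor family and their adaptors, the directions were mixed. Of 8 tested genes, Fb-Epn had 3 higher and 4 lower against Fb-Skn, Fb-Par had 4 higher and 3 lower against Fb-Skn, and Fb-Epn had 3 higher and 2 lower against Fb-Par, beside 23.0% and 20.9%, 23.2% and 22.4%, and 20.2% and 18.6% of all tested genes. *Lrp4*, the agrin receptor, was highest in Fb-Par, with 1.66, 11.1 and 6.34 TPM. *Lrp2*, megalin, was near the floor in the nerve types, with at most 12, 4 and 38 counts per library. *Lrp1*, a large endocytic receptor, had 404.2, 558.5 and 303.0 TPM. *Dab2*, the relative of *Dab1*, had 86.9, 75.7 and 92.6 TPM.

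Genes that act after Dab1 held no DE gene, while 6.48% to 8.54% of all tested genes were DE genes in a comparison. Of 14 kinases and signalling genes, Fb-Epn had 7 higher and 3 lower against Fb-Skn, Fb-Par had 7 higher and 1 lower against Fb-Skn, and Fb-Epn had 2 higher and 3 lower against Fb-Par, where the shares of all tested genes were 23.0% and 20.9%, 23.2% and 22.4%, and 20.2% and 18.6%. *Fyn*, a kinase of Dab1, had 84.4 ± 1.42, 67.1 ± 2.09 and 65.0 ± 0.592 TPM, and *Src* had 72.2, 70.8 and 47.3 TPM. *Nck2*, an adaptor that binds phosphorylated Dab1, had 20.1, 32.2 and 27.6 TPM. *Crkl*, an adaptor of the same signal, had 5.997, 6.83 and 4.04 TPM, and its call in Fb-Par against Fb-Skn was lost without Fb-Skn replicate 1 (adjusted p = 0.012, edgeR). *Pik3cb* had 2.37, 2.00 and 0.936 TPM, and its Fb-Par against Fb-Skn call was lost in 6 of 20 alternatives, with an adjusted p of up to 0.042, among them the fits without Fb-Epn replicate 1, Fb-Par replicates 2 and 3, and Fb-Skn replicates 1 and 3. None of the 3 genes of Dab1 degradation (*Cul5*, *Rnf7* and *Socs7*) was past the test in any comparison.

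Of 11 cytoskeleton and adhesion genes, Fb-Epn had 5 higher and 2 lower against Fb-Skn, Fb-Par had 3 higher and 2 lower against Fb-Skn, and Fb-Epn had 4 higher and 2 lower against Fb-Par. With 23.0% and 20.9%, 23.2% and 22.4%, and 20.2% and 18.6% over all tested genes, the counts in Fb-Par against Fb-Skn were near the background. *Cdh2*, N-cadherin, had 57.2 ± 2.33 TPM in Fb-Epn, 20.3 ± 2.17 TPM in Fb-Par and 17.2 ± 1.40 TPM in Fb-Skn (SD, n = 3). *Map1b*, a microtubule protein, was highest in Fb-Par, with 63.9, 115.7 and 39.9 TPM. *Itga3*, an integrin subunit that binds Reelin, had 5.23, 4.21 and 2.52 TPM, and its call in Fb-Par against Fb-Skn was lost in 10 of 20 alternatives, with an adjusted p of up to 0.040, among them the fits without each library other than Fb-Skn replicate 3. *Pafah1b3*, a subunit of the LIS1 complex, had 28.2, 15.1 and 18.3 TPM, and its call in Fb-Epn against Fb-Skn was lost in 7 of 20 alternatives, with an adjusted p of up to 0.036, among them the fits without each Fb-Epn library in turn and without Fb-Skn replicates 1 and 3.

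**Figure D4:**
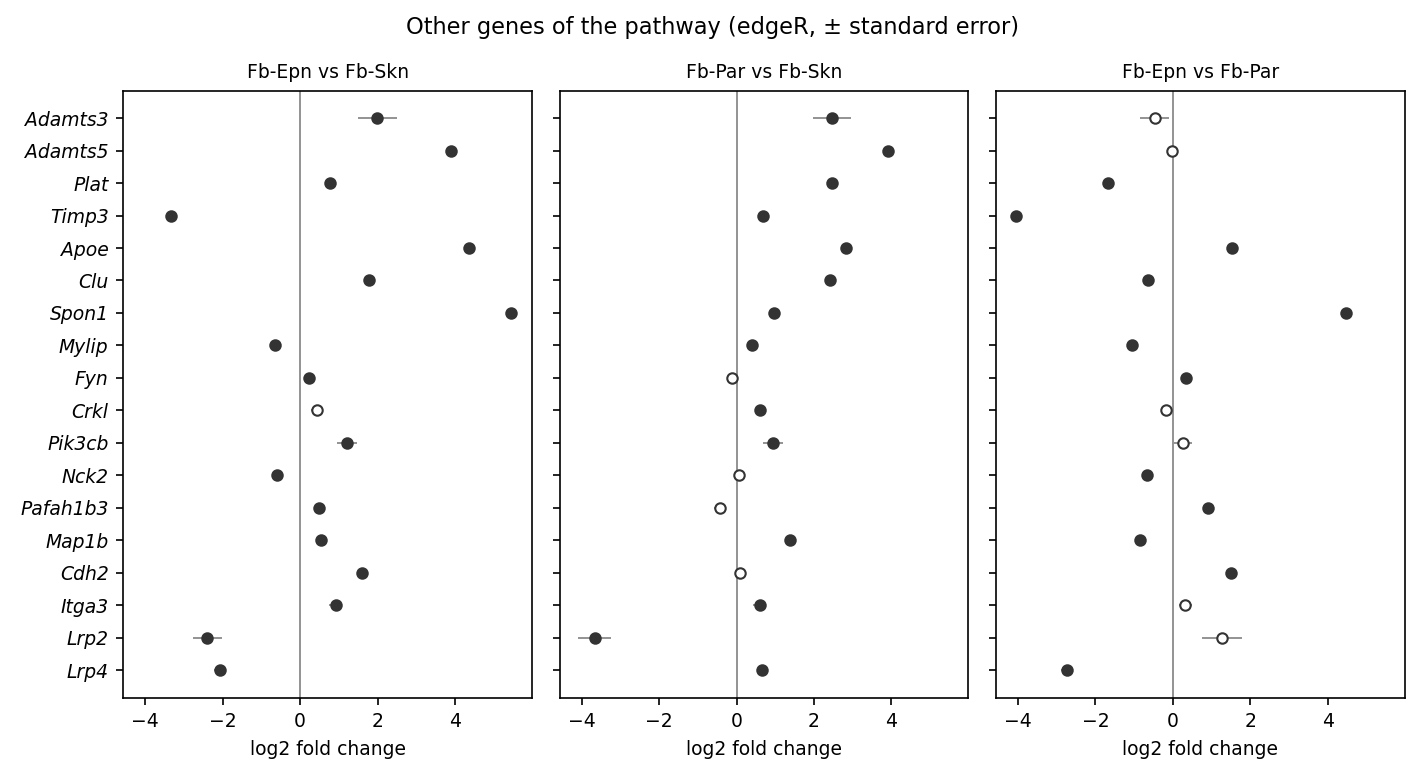
Log2 fold change (horizontal axis, first type over second, edgeR, bars are standard errors) of 18 genes of the pathway lists (vertical axis) in the 3 comparisons. Filled points are past an adjusted p of 0.01 and open points are not. *Spon1* and *Apoe* lay far to the right in Fb-Epn against Fb-Skn, at 5.44 and 4.35, and *Timp3* to the left, at -3.35.

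The profiles most like those of the members were found with Pearson's r of log2(TPM + 1) over the 9 libraries. This r is a description only, since the libraries form 3 types and *Reln* was chosen for its pattern. *Reln* was most like *Prss23* (r = 0.9993), *Rassf9* (0.9992), *Cyp26b1* (0.9991), *Col5a3* (0.9982) and *Tril* (0.9974), and 94 of 13272 other genes had an r above 0.99. *Prss23* had 827.7, 1330 and 652.4 TPM, *Col5a3* had 128.7, 304.8 and 85.4 TPM and *Tril* had 21.6, 78.7 and 8.95 TPM. *Rassf9* had 1.89, 13.2 and 0.0818 TPM, and *Cyp26b1*, a retinoic acid hydroxylase, had 4.11, 19.6 and 1.31 TPM. Since r ignores the size of a difference, a gene with a high r need not be absent in Fb-Skn. *Vldlr* was most like *Accsl*, *Slit2*, *Ppm1l*, *Enah* and *Tgfb3* (r = 0.9952 to 0.9930), with *Slit2*, an axon guidance ligand, at 23.6, 39.6 and 86.0 TPM. *Lrp8* had no gene above 0.99 and was most like *Thnsl2* (0.958). Among the members themselves r was -0.49 for *Reln* with *Vldlr*, -0.60 for *Reln* with *Lrp8* and 0.65 for *Vldlr* with *Lrp8*.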

How the data were processed

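RNA-seq of 9 libraries (poly(A), directional, paired reads of 150 bp) was analysed. Reads were trimmed with Trimmomatic 0.38, aligned to rn6 with HISAT2 2.1.0, checked with FastQC 0.11.7 and counted with featureCounts 1.6.3, per the submitters' processing notes; the strand setting and annotation release are not given in the sources used here. The authors deposited raw counts per gene, and TPM made from these counts. The authors also deposited FPKM, which could not be obtained by rescaling these counts and served only as an alternative.

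Groups and replicate numbers came from the sample labels. Counts were fitted with edgeR 4.0.16 in R 4.3.3 (TMM, default expression filter, quasi-likelihood test, 1 model of all 9 libraries, 3 contrasts), with Benjamini-Hochberg adjustment over all tested genes and a threshold of 0.01. For DE genes a log2 fold change beyond 2 was required as well. The 95% intervals used 6 residual degrees of freedom. The script was tested on simulated data. Alternatives covered normalization, DESeq2 1.42.0, limma 3.58.1 on log2 TPM or FPKM (pseudocounts 1 and 0.1), filters, and leaving out each library. Tables were made with Python 3.11.15.

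The members and lists were chosen with earlier results of these data known. The named pathway genes are the DE genes of the lists and the 2 largest calls per list and comparison. *Adamts2*, *Thbs1*, *Lrpap1*, *Lrp1*, *Dab2*, *Src*, *Selenop*, *Lpl* and some marker genes were added after their values were seen. Some listed genes that enter the counts and sums are not reported here by name, and listed genes without a row were not analysed here. Replicate numbers were not taken as pairs of libraries, and the sources do not state a pairing.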

Additional observations from a re-analysis of the deposited data

How the results depend on the processing

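*Vldlr* kept its direction and its side of the threshold under all 20 alternatives in each comparison, with an adjusted p of at most 0.00088. *Lrp8* in Fb-Par against Fb-Skn had an adjusted p below 0.01 in 10 of 20 alternatives. Its log2 fold change was -0.45 with library size only (edgeR, adjusted p = 0.017), and with limma -0.32 on log2(TPM + 1) (adjusted p = 0.080), -0.38 on log2(TPM + 0.1) (adjusted p = 0.0997) and -0.31 on log2(FPKM + 1) (adjusted p = 0.019). With 1 library left out at a time it was -0.57 to -0.52 (edgeR, adjusted p from 0.00053 to 0.022). In Fb-Epn against Fb-Skn, *Lrp8* passed the threshold with no filter (-0.45, edgeR, adjusted p = 0.0072), and ranged from -0.59 to -0.27 with each library left out. In Fb-Epn against Fb-Par it ranged from -0.045 to 0.27, and turned to -0.045 without Fb-Epn replicate 2 (edgeR, adjusted p = 0.84). The *Reln* difference of Fb-Epn from Fb-Par was -2.32 on log2(TPM + 1) and -1.86 on log2(FPKM + 1), where the pseudocount compresses low values, and from -3.02 to -2.90 with each library left out. *Reln* could not be fitted with at least 10 counts in every library, and *Dab1* was fitted with no filter only. The number of pathway genes past the test fell to 7 in Fb-Epn against Fb-Skn, 3 in Fb-Epn against Fb-Par and 7 between Fb-Par and Fb-Skn once a log2 fold change beyond 2 was required, and with each library left out it was 36 to 44, 27 to 29 and 30 to 33. Other causes were not tested.

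Same-numbered libraries of different types did not deviate together, with r from -0.088 to 0.021 over 9 pairs, so the replicate numbers were not taken as pairs. Of these, only pairs of Fb-Epn with Fb-Par could share a rat, with r of -0.0291, -0.013 and -0.0875. With the replicate number as a block, 41, 29 and 32 pathway genes passed in the order above, and no call of *Vldlr* or *Lrp8* changed. The low counts of *Dab1* limit its comparisons.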

Other observations

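The remaining cell type markers are given as values. The 7 macrophage markers summed to 223 to 238 TPM in Fb-Epn, 47.7 to 51.8 TPM in Fb-Par and 9.73 to 12.2 TPM in Fb-Skn, with *Cd68* the highest. The 6 perineurial markers summed to 211 to 216, 87.5 to 94.9 and 113 to 125 TPM, with *Lypd2* at 0 in every library. The 6 neuron markers summed to 16.8 to 18.4, 2.30 to 2.71 and 581 to 615 TPM, of which *Stmn2* made up 597 TPM in Fb-Skn, while *Elavl3* was at 0 in every library. The 5 adipocyte markers summed to 44.1 to 58.1, 16.2 to 17.0 and 1.26 to 1.45 TPM. The 4 keratinocyte markers analysed reached at most 4.16 TPM and the 4 melanocyte markers at most 3.53 TPM in a library.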
